A study of Mus musculus with 6 samples.

Results

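The proto-oncogene Mycn, its chromosome 12 neighbours Ddx1 and Nbas, and 7 further genes of the Myc transcription factor network were followed in a mouse glioblastoma cell line with and without a knockout of Bcat1. The set held 10 of the 49585 genes listed, found by exact match of gene name. Mycn, Ddx1 and Nbas were selected on their very high read counts in these libraries, so their levels and fold changes are given as a description with no test. Myc, Mycl, Max, Mnt, Mxd3, Mxd4 and Mga were listed for their place in the network, with earlier results of these data known. All 10 genes passed the filter on low counts.

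The samples were 3 untreated Bcat1-KO samples and 3 untreated control samples (called NT in the study's design) of the mGB2 line, labelled as glioblastoma stem cells. All were grown attached to a matrix-coated plate in medium with EGF and FGF and were collected at confluency. The labels do not say how many clones the knockout comprises, which allele it carries, or whether the 3 samples of a group came from separate cultures, so p-values measure only the spread between these samples. BCAT1 is the cytosolic enzyme that transfers the amino group of branched-chain amino acids.

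MYC, N-MYC (from Mycn) and L-MYC (from Mycl) are basic helix-loop-helix leucine zipper transcription factors that bind DNA as dimers with MAX, at the sequence CACGTG and its variants, and drive growth genes. MNT, the MXD proteins and MGA also dimerise with MAX and repress from the same sites. MYCN is amplified in some neuroblastomas and gliomas, and DDX1 and NBAS, its neighbours in human and mouse, are often carried along in the human amplicon.

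Each library held a raw count of reads per gene, taken on the reverse strand, which is the coding strand with this kit. Totals were 35608024 to 37800648 counts in the Bcat1-KO libraries and 29543157 to 33550412 counts in the control libraries, so that 3 counts in a library corresponded to 0.0780 to 0.103 CPM, that is counts scaled to library totals of 1000000. Bcat1 itself had 155, 176 and 173 CPM in Bcat1-KO, against 214, 223 and 232 CPM in control. Of the 8 stem and neural progenitor markers, only Prom1 stayed below 1 CPM in every library. The summed level of these 8 was 1341 to 1547 CPM in Bcat1-KO and 941 to 973 CPM in control, and its members differed in direction. Sox2 had 287 to 375 CPM in Bcat1-KO and 131 to 140 CPM in control, whereas Pou3f2 had 1.52 to 1.84 CPM in Bcat1-KO and 16.4 to 18.9 CPM in control and Sall2 had 70.9 to 76.5 CPM in Bcat1-KO and 113 to 121 CPM in control. All 5 immune markers and all 4 endothelial markers were below 1 CPM in every library, as were 3 of 5 fibroblast markers and 1 of 4 neuronal markers. The 4 neuronal markers summed to 29.7 to 42.5 CPM in Bcat1-KO and 54.1 to 56.3 CPM in control, also without a common direction: Rbfox3 had 0.0277 to 0.110 CPM in Bcat1-KO and 32.3 to 33.6 CPM in control, while Syt1 was higher in every Bcat1-KO library, at up to 29.1 CPM in Bcat1-KO and up to 13.2 CPM in control. The part of these markers in the results was not tested. Bcat1-KO replicate 1 stood apart from its group: the chi-square per gene between libraries was 31.4 and 33.2 for its pairs, against 12.6 between replicates 2 and 3. Control replicate 1 also stood apart from its group, at smaller values. Its pairs gave 12.8 and 12, against 4.01 between control replicates 2 and 3. Calls of network genes and counts of lists that change without Bcat1-KO replicate 1 are given both ways. In bulk RNA, fewer cells that express a gene and less of its RNA per cell cannot be told apart.

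Promoter windows of 300 bases, 250 before to 50 after the annotated start, were matched by symbol in RefSeq (GRCm38.p6) for 9 of the 10 genes, all but Myc. They are shown for the chromosome 12 genes, and for the 3 network genes whose window holds the E-box CACGTG to which MAX dimers bind. The Mycn window lies at chr12:12941787-12942086 on the minus strand, with the E2F letters in capitals. The Ddx1 window lies at chr12:13249125-13249424 on the minus strand and that of Nbas at chr12:13268877-13269176 on the plus strand, and neither holds either motif.
Mycn: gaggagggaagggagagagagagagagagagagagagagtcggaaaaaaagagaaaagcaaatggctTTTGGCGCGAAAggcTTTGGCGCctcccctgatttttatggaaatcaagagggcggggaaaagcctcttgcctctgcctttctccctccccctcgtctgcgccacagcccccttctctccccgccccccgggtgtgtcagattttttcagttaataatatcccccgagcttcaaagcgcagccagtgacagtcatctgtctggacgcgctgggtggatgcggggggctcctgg
Ddx1: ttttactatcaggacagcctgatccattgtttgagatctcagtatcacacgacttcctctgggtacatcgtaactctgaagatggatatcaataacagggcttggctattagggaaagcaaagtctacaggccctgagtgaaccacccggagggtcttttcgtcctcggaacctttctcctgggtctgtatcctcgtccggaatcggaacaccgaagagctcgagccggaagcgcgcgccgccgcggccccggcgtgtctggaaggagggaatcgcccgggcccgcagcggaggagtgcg
Nbas: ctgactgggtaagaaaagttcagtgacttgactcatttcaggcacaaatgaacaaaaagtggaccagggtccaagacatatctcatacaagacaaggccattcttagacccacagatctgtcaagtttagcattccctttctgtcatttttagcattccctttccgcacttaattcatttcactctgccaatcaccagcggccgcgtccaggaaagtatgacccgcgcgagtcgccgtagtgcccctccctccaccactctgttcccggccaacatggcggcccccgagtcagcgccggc

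The windows of Max (chr12:76962199-76962498, minus strand), Mnt (chr11:74830674-74830973, plus strand) and Mxd4 (chr5:34187661-34187960, minus strand) each have 1 match to CACGTG, which reads the same on both strands and is in capitals.
Max: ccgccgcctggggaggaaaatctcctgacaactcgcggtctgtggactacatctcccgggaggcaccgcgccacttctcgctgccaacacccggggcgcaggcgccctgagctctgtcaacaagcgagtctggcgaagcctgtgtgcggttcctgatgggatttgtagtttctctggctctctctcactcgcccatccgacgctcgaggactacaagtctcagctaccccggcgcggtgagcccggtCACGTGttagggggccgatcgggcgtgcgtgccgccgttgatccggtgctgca
Mnt: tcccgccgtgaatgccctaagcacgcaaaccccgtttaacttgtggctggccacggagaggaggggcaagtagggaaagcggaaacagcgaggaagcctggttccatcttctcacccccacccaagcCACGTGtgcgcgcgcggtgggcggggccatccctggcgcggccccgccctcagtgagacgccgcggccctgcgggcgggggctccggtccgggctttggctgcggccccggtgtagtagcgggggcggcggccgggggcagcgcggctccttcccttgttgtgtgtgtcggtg
Mxd4: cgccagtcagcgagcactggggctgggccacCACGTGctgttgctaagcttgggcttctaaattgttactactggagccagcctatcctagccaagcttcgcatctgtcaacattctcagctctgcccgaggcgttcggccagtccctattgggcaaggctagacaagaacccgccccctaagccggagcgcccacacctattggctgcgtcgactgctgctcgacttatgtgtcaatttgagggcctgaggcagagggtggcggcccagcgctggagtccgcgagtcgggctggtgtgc

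The E-box starts at position -3 from the transcription start in Max, -123 in Mnt and -219 in Mxd4. It was found in 3 of the 9 windows, and in 2349 of 32851 windows of all genes (7.15%). The E2F letters, TTTGGCGC or TTTCGCGC on either strand, matched at -183, -179 and -168 in Mycn, where the first and the second match overlap. They were found in 1 of the 9 windows and in 0.813% of all windows. A match is a stretch of letters and not a shown binding site, and no match says only that these letters are not in the window.

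Mycn, which encodes N-MYC, lies on chromosome 12 at 12936096 to 12941914 (mm10, minus strand; ENSMUSG00000037169.14). Ddx1, an RNA helicase of the tRNA ligase complex, lies 277.4 kb further along at 13219308 to 13249213 on the minus strand (ENSMUSG00000037149.9). Nbas, which encodes a tether of vesicles at the endoplasmic reticulum with a further role in nonsense-mediated decay, begins 19.91 kb after Ddx1 and runs over 13269127 to 13583810 on the plus strand (ENSMUSG00000020576.9). All 10 genes are protein-coding in GENCODE.

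Mycn had 661, 739.5 and 779 CPM in Bcat1-KO, against 966, 936.5 and 948 CPM in control. Every Bcat1-KO library was below every control library, and the lowest was Bcat1-KO replicate 1. The means were 726 ± 60.2 CPM in Bcat1-KO and 950.2 ± 14.7 CPM in control (SD, n = 3 each), a log2 fold change of -0.39 (SE 0.08). Ddx1 was among the most abundant messages of the cells, with 3318, 3808 and 3858 CPM in Bcat1-KO, against 6963, 7353 and 7447 CPM in control. The groups were far apart, at a log2 fold change of -0.99 (SE 0.10). Nbas had 329, 298 and 322 CPM in Bcat1-KO and 1171, 1130 and 1256 CPM in control, a log2 fold change of -1.90 (SE 0.08). The difference was smallest at Mycn, larger at Ddx1 and largest at Nbas, which is also their order along the chromosome. This order of 3 genes is a description and was not tested. It did not continue in the nearest tested genes outside, at -1.80 for 4930519A11Rik before Mycn and 3.13 for Fam84a past Nbas. Together the 3 genes took 0.437%, 0.493% and 0.495% of all counts in Bcat1-KO and 0.905%, 0.932% and 0.949% in control.

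**Figure D1:**
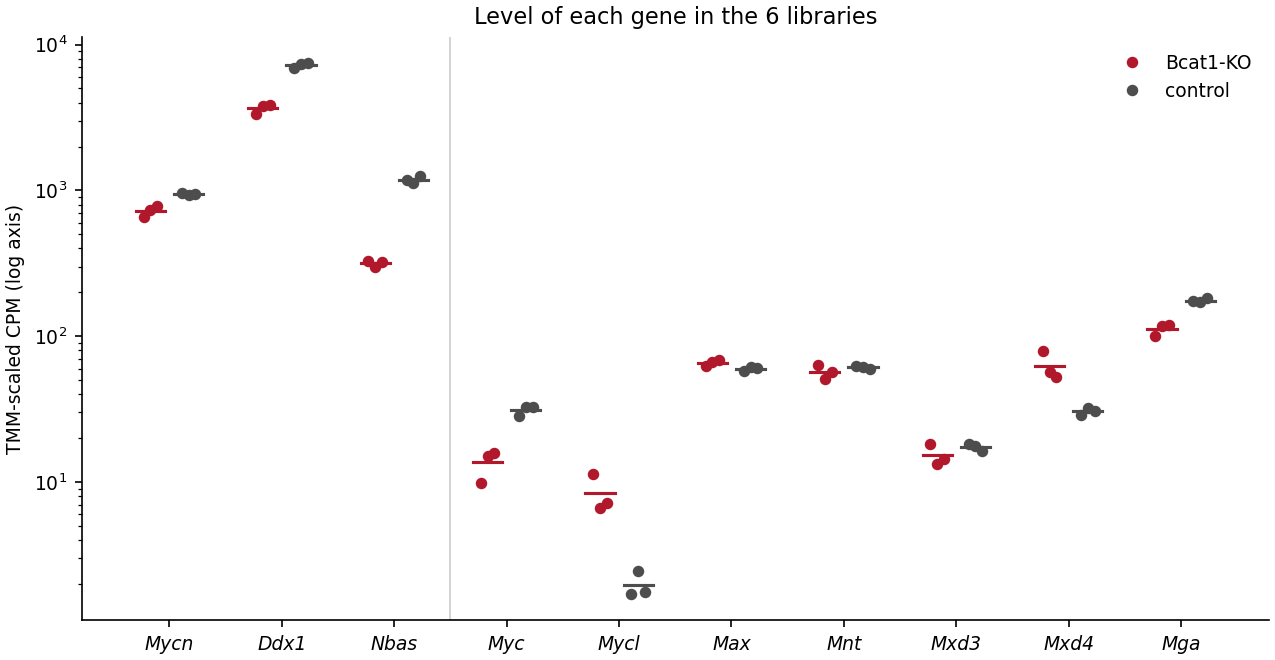
Level of each of the 10 genes in TMM-scaled CPM (log axis), with Bcat1-KO libraries left of control libraries; points are libraries and bars are means of 3. Ddx1 leads in both groups, Nbas has 317 CPM in Bcat1-KO and 1186 CPM in control, and Mycl and Mxd4 are the genes whose higher level in Bcat1-KO passed the test.

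Levels of different genes were compared per kb of exonic length. Ddx1 averaged 1460 ± 119 CPM per kb in Bcat1-KO and 2894 ± 102 in control, Mycn 221 ± 18.3 in Bcat1-KO and 289 ± 4.48 in control, and Nbas 43.7 ± 2.23 in Bcat1-KO and 164 ± 8.86 in control (SD, n = 3 each). Among 12290 tested protein-coding genes ranked by level per length, Ddx1 held places 15, 8 and 8 in the Bcat1-KO libraries and 5, 4 and 4 in the control libraries. Mycn held places 189, 153 and 150 in Bcat1-KO, against 118, 131 and 127 in control. Nbas held places 1159, 1304 and 1204 in Bcat1-KO, against 220, 244 and 212 in control, so it was the gene of the 3 whose standing in the transcriptome differed most.

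The 3 genes did not keep a fixed ratio to each other. Nbas per length was 0.226, 0.184 and 0.188 of Mycn per length in Bcat1-KO, against 0.551, 0.549 and 0.602 in control. Ddx1 per length was 6.59, 6.76 and 6.50 times Mycn in Bcat1-KO, against 9.47, 10.3 and 10.3 times in control. Ddx1 per length was 29.1, 36.9 and 34.5 times Nbas in Bcat1-KO and 17.2, 18.8 and 17.1 times in control. In all 3 ratios the groups did not overlap, and the ratio of Ddx1 to Nbas follows from the others. Levels of single genes did not overlap for 67.7% of all genes tested. The ratios use the counts on which the genes were selected, so they are a description with no test.

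The 20 nearest tested genes, 10 to each side of the stretch, reached a mean of at most 844 CPM in Bcat1-KO and 787.5 CPM in control, and most of them rose. Of the 20, 14 rose and 5 fell (edgeR's quasi-likelihood test, p adjusted over all genes by Benjamini-Hochberg), with a median log2 fold change of 0.60 and a range of -2.52 to 4.07. Of all genes 62.3% passed, 32.0% higher and 30.3% lower. On the side of Mycn 6 of 10 rose and 3 fell (median 0.425), and on the side of Nbas 8 of 10 rose and 2 fell (median 1.37). There, every tested gene from Greb1 (2.62) to Pdia6 (1.46) rose, with starts 3859 to 4324.6 kb from that of Mycn. The nearest tested gene on the side of Mycn is the lincRNA 4930519A11Rik, which fell to 0.429 ± 0.245 CPM in Bcat1-KO, against 1.52 ± 0.289 CPM in control (log2 fold change -1.80, SE 0.36, adjusted p = 0.000921). Next to it lies Fam49a, a protein-coding gene that ends 559.7 kb before Mycn. Fam49a rose to 3.47 ± 0.194 CPM in Bcat1-KO, against 0.201 ± 0.0590 CPM in control (log2 fold change 4.07, SE 0.25, adjusted p = 5.504e-08). Its control libraries had 0.254, 0.211 and 0.138 CPM, where 3 counts corresponded to 0.0904 to 0.103 CPM. The size of its fold is thus uncertain, at 1.58 to 4.26 over 18 alternatives, all of which kept the call. Beyond Nbas, Fam84a rose to 24.1 ± 0.696 CPM in Bcat1-KO, against 2.75 ± 0.279 CPM in control (log2 fold change 3.13, SE 0.11, adjusted p = 4.852e-10). The pseudokinase gene Trib2 rose to 229.9 ± 3.73 CPM in Bcat1-KO, against 196 ± 4.84 CPM in control (log2 fold change 0.23, SE 0.06, adjusted p = 0.00632). The nearest tested gene on each side, 4930519A11Rik and Fam84a, had far fewer counts than Mycn, Ddx1 and Nbas in both groups. Some genes further out did not. Mycn, Ddx1 and Nbas were selected on their high counts, so this contrast is a description with no test. DNA copy number was not measured.

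**Figure D2:**
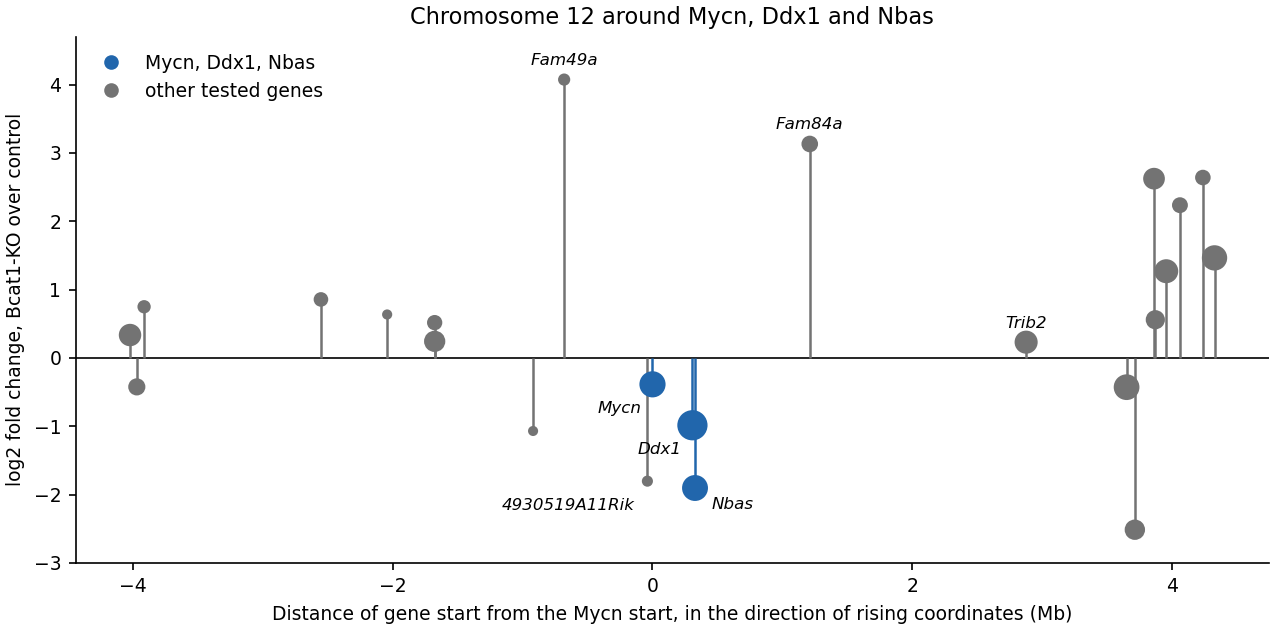
Log2 fold change of Bcat1-KO over control (vertical axis) of Mycn, Ddx1, Nbas and the 20 tested genes around them, against the distance of each transcription start from that of Mycn along chromosome 12; the size of a circle grows with the logarithm of the summed group means in CPM. Mycn, Ddx1 and Nbas lie below 0 at -0.39, -0.99 and -1.90, while 14 of the 20 flanking genes lie above 0 and passed the test.

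The libraries keep the strand, so reads opposite to each gene were counted as well, a readout that the choice of the genes did not use. Opposite to Ddx1, 391, 534 and 419 reads were counted in Bcat1-KO, against 199, 205 and 134 in control. That is 12.1 ± 1.597 CPM in Bcat1-KO and 5.71 ± 0.950 CPM in control, higher in Bcat1-KO by a factor of 2.12, while the gene's own strand was lower. Opposite to Nbas, 69, 68 and 87 reads were counted in Bcat1-KO, against 21, 30 and 23 in control, or 2.02 ± 0.328 CPM in Bcat1-KO and 0.788 ± 0.118 CPM in control, a factor of 2.57. Opposite to Mycn the groups overlapped, with 39, 64 and 35 reads in Bcat1-KO and 26, 56 and 30 in control, and the sign of the difference turned when single libraries were left out. The two-sided exact permutation p of the opposite-strand CPM was 0.1 for Ddx1 and for Nbas, the smallest that 3 against 3 allows, and 0.8 for Mycn, so this design could not reach 0.05.

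As a share of the reads on both strands of the gene, the opposite strand held 0.578%, 0.589% and 0.737% at Nbas in Bcat1-KO, against 0.0570%, 0.0799% and 0.0630% in control. At Ddx1 it held 0.325%, 0.363% and 0.298% in Bcat1-KO, against 0.0908%, 0.0839% and 0.0619% in control. The share moves with the gene's own strand, which makes up nearly all of its denominator and was used to choose the genes, so it is a description with no test. In 244 reference genes with a mean of at least 10000 counts and no overlapping gene, the median opposite share was 0.113% to 0.125% in the Bcat1-KO libraries and 0.0772% to 0.124% in the control libraries. The share at Nbas was exceeded by 18, 16 and 9 of these 244 genes in Bcat1-KO and by 155, 167 and 155 in control.

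**Figure D3:**
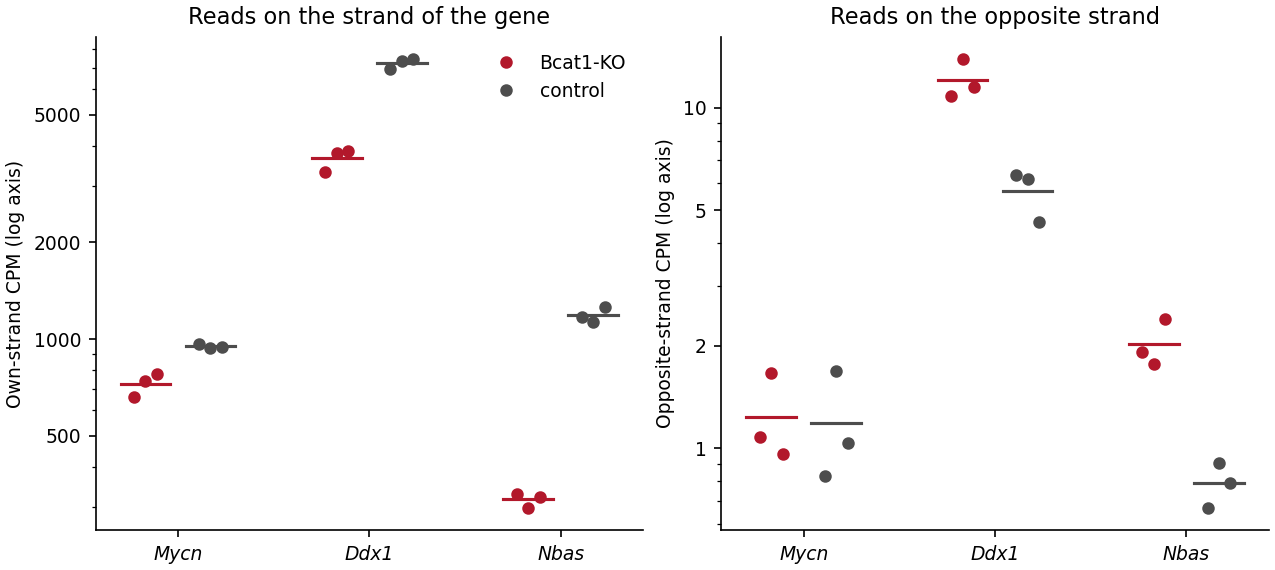
CPM of Mycn, Ddx1 and Nbas on the strand of the gene (left panel) and on the opposite strand (right panel), each on its own log axis, with Bcat1-KO left of control; points are libraries and bars are means of 3. On their own strand all 3 genes are lower in Bcat1-KO, and on the opposite strand Ddx1 has 12.1 CPM in Bcat1-KO and 5.71 in control, and Nbas has 2.02 CPM in Bcat1-KO and 0.788 in control.

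Small annotated genes in and after Nbas gave a view of RNA outside its exons. The row Gm6736 lies inside the span of Nbas on the other strand and shares no base with its exons. In the direction of Nbas it held 19, 6 and 9 reads in Bcat1-KO, against 59, 59 and 44 in control, that is 34 reads over the Bcat1-KO libraries and 162 over the control libraries. Gm4929 begins 168.9 kb past the end of Nbas, and in the direction of Nbas it held 0, 0 and 1 reads in Bcat1-KO, against 27, 27 and 14 in control. These 2 rows were chosen after their values were seen, and no test was made.

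For Mycn, the genes with the most similar pattern over the 6 libraries, by root mean square distance of centred log2 CPM among the 6510 genes whose mean log2 CPM was 5 or more, were Gigyf2 (0.0192), Traf3 (0.0207), Adar (0.0236) and Nol8 (0.0283). Their log2 fold changes were -0.38, -0.39, -0.40 and -0.34, and of the 4 only Traf3 lies on chromosome 12. This distance counts the size of a change, so Ddx1 and Nbas, at -0.99 and -1.90, could not be among them. Their absence does not show that they vary apart from Mycn.

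Of the 7 network genes outside the locus, 4 passed the test, 2 higher and 2 lower: Mycl and Mxd4 rose, and Myc and Mga fell. Over all 14020 genes tested, 8735 passed (62.3%), 4480 of them higher (32.0%) and 4255 lower (30.3%), so a share of 4 in 7 was near that of all genes. The median log2 fold change of all genes was 0.01.

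Myc, the family member that most dividing cells use, lies on chromosome 15 at 61985391 to 61990374 on the plus strand (ENSMUSG00000022346.15). It had 9.89, 15.1 and 15.9 CPM in Bcat1-KO, against 28.2, 32.6 and 32.5 CPM in control. The groups were well apart, and Myc fell by 1.19 on the log2 scale (SE 0.15, adjusted p = 2.751e-05).

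Mycl, the member first found in small cell lung cancer, lies on chromosome 4 at 122995652 to 123002485 on the plus strand (ENSMUSG00000028654.13). By group means it was the least abundant of the 10 genes, with 410, 256 and 262 counts in Bcat1-KO and 54, 81 and 51 counts in control. This made 11.4, 6.65 and 7.21 CPM in Bcat1-KO, against 1.72, 2.44 and 1.76 CPM in control. Mycl rose 4.24-fold (log2 fold change 2.08, SE 0.23, adjusted p = 1.002e-05), the largest difference among the 10 genes with all 6 libraries. Its highest library was Bcat1-KO replicate 1. Without that library the largest difference was that of Nbas, at -1.95, with Mycl at 1.79. With limma on log2(TPM + 1) it was also that of Nbas, at -1.83, with Mycl at 1.61.

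Mycn, which was selected on its high read counts, made up most of the summed level of the 3 family members per length. Its share was 96.9% in each Bcat1-KO library, against 96.5%, 95.8% and 95.9% in control. Myc held 1.76%, 2.39% and 2.40% in Bcat1-KO, against 3.41%, 4.04% and 3.98% in control, and Mycl held 1.36%, 0.711% and 0.731% in Bcat1-KO, against 0.140%, 0.203% and 0.145% in control. Mycl per length was 0.773, 0.298 and 0.305 of Myc in Bcat1-KO and 0.0410, 0.0504 and 0.0363 of Myc in control.

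Max, the common partner of all these factors, lies on chromosome 12 far from Mycn, at 76937269 to 76962248 on the minus strand (ENSMUSG00000059436.12). It had 62.4, 67.1 and 68.5 CPM in Bcat1-KO, against 58.2, 61.8 and 60.2 CPM in control. The groups did not overlap, as was the case for 67.7% of all genes tested, but the difference missed the threshold (log2 fold change 0.14, 95% interval -0.01 to 0.28, adjusted p = 0.0870). Without Bcat1-KO replicate 1 it passed, at 0.16 (adjusted p = 0.0276). When any other library was left out it did not pass (adjusted p 0.150 to 0.272). The summed level of Mycn, Myc and Mycl per length was 6.66, 6.93 and 7.15 times that of Max in Bcat1-KO, against 10.5, 9.64 and 10.01 times in control, with Mycn setting most of the sum.

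The antagonists of MYC moved in both directions. Mxd4, a repressor of the MXD family linked to differentiation (chromosome 5, 34173883 to 34187720, minus strand; ENSMUSG00000037235.13), had 79.7, 56.6 and 52.3 CPM in Bcat1-KO, against 28.7, 32.1 and 30.7 CPM in control. Every Bcat1-KO library was above every control library, with replicate 1 the highest, and Mxd4 rose by 1.04 on the log2 scale (SE 0.13, adjusted p = 3.531e-05). Mga, a large protein with a T-box domain beside its MAX-binding domain (chromosome 2, 119897228 to 119969581, plus strand; ENSMUSG00000033943.15), had 99.98, 117 and 119 CPM in Bcat1-KO, against 173, 171 and 183 CPM in control. Mga fell by 0.65 (SE 0.08, adjusted p = 1.79e-05), though this did not pass when tested against a 1.5-fold change.

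Mnt, the most widely expressed antagonist (chromosome 11, 74830920 to 74845725, plus strand; ENSMUSG00000000282.12), had 63.6, 51.2 and 56.5 CPM in Bcat1-KO, against 62.6, 61.4 and 59.4 CPM in control. The groups overlapped through Bcat1-KO replicate 1 (log2 fold change -0.10, 95% interval -0.28 to 0.08, adjusted p = 0.305), and without that library the value was -0.20 (adjusted p = 0.0135). Mxd3, an MXD member of proliferating progenitors (chromosome 13, 55325168 to 55329758, minus strand; ENSMUSG00000021485.13), had 18.4, 13.3 and 14.4 CPM in Bcat1-KO, against 18.3, 17.8 and 16.4 CPM in control. Its value was -0.19 (95% interval -0.46 to 0.08, adjusted p = 0.194), and -0.36 without Bcat1-KO replicate 1 (adjusted p = 0.00257). Prelid1 overlaps Mxd3 on the other strand, where 466 to 602 reads were counted in Bcat1-KO and 571 to 749 in control.

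**Figure D4:**
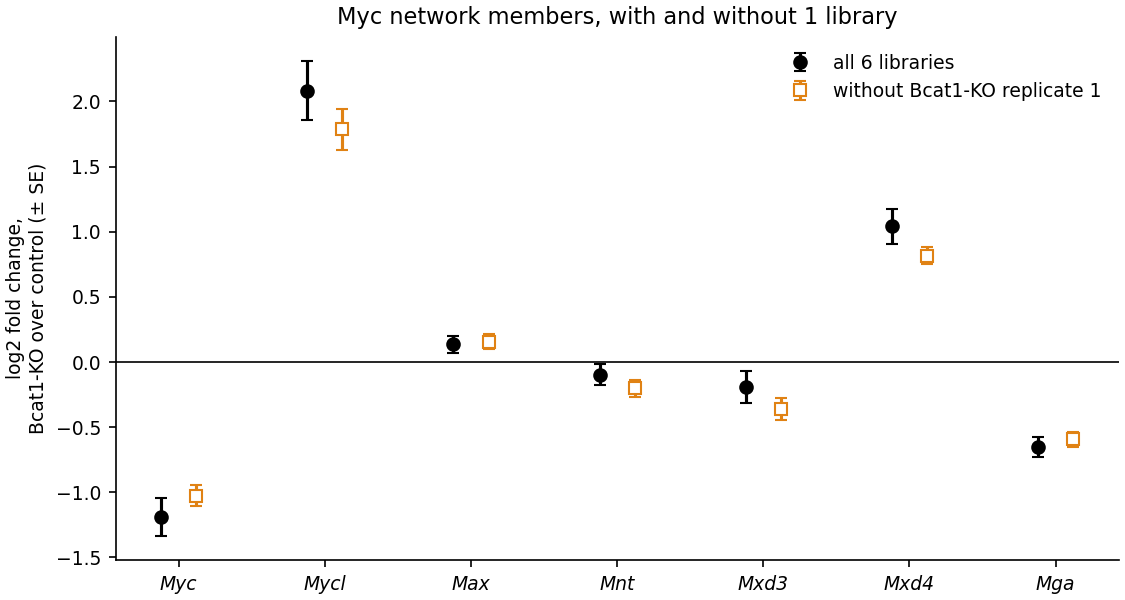
Log2 fold change of Bcat1-KO over control (vertical axis, bars ± SE) of the 7 network genes from all 6 libraries (filled circles) and without Bcat1-KO replicate 1 (open squares). Mycl and Mxd4 lie above 0 and Myc and Mga below 0 in both, while Max, Mnt and Mxd3 lie within 0.20 of 0 with all libraries.

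Without Bcat1-KO replicate 1, then, all 7 network genes passed, 3 higher and 4 lower, where 9330 of 14218 genes passed (65.6%). Myc, Mycl, Mxd4 and Mga had log2 fold changes of -1.02, 1.79, 0.81 and -0.59 in that fit. Replicate 1 lay at the end of the Bcat1-KO range for every one of the 7.

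Per kb of exonic length, the network genes below Nbas stood in the order Max, Mnt, Mxd4, Mxd3, Mga, Myc and Mycl in Bcat1-KO, with 32.9 ± 1.603, 12.3 ± 1.35, 7.41 ± 1.74, 7.37 ± 1.29, 7.31 ± 0.687, 5.01 ± 1.201 and 2.08 ± 0.637 CPM per kb (SD, n = 3). Mxd4, Mxd3 and Mga could not be ranked, since their ranges of 6.16 to 9.39, 6.37 to 8.83 and 6.52 to 7.78 CPM per kb overlapped. In control the order was Max, Mnt, Mga, Myc, Mxd3, Mxd4 and Mycl, with 29.9 ± 0.908, 13.2 ± 0.350, 11.5 ± 0.428, 11.5 ± 0.933, 8.40 ± 0.482, 3.60 ± 0.204 and 0.488 ± 0.101 CPM per kb. Only Mga and Myc overlapped there. Summed over Mnt, Mxd3, Mxd4 and Mga, the antagonists had 38.5, 31.7 and 33.1 CPM per kb in Bcat1-KO and 37.0, 36.7 and 36.3 in control, and the groups overlapped. Mycn per length was 5.22, 7.08 and 7.16 times this sum in Bcat1-KO, against 7.93, 7.75 and 7.95 times in control.

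The wider network was read through 13 lists of related genes, of which 138 of 142 genes were tested. Of these, 46 rose and 41 fell (63.0%), against 62.3% of all genes, with a median log2 fold change of 0.01 in both. Without Bcat1-KO replicate 1, 51 rose and 40 fell (65.9%, against 65.6% of all genes). The counts of each list below stand beside 32.0% of all genes higher and 30.3% lower.

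Among MAX-side and MLX partners, 1 of 4 tested genes rose and 1 fell. Mxi1, the MXD2 repressor, rose to 75.3 ± 8.96 CPM in Bcat1-KO, against 57.1 ± 3.32 CPM in control (log2 fold change 0.40, adjusted p = 0.00177). Mlxip, which encodes the glucose-responsive factor MondoA, fell to 88.2 ± 5.60 CPM in Bcat1-KO, against 114 ± 8.87 CPM in control (-0.37, adjusted p = 0.00123). Mxd1 and Mlx had values of -0.01 and -0.15 (adjusted p = 0.941 and 0.0743).

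Of 12 genes for coactivators of MYC, 4 rose and 4 fell, with a median of 0.09. The acetyltransferase gene Ep300 had a log2 fold change of -0.38 (adjusted p = 0.00263) and the scaffold gene Trrap -0.26 (adjusted p = 0.0130). The call for Trrap was lost in 5 of 18 alternatives. Among them were an offset for gene length, at -0.14 (adjusted p = 0.111, edgeR), and both fits of TPM values (adjusted p = 0.0829 and 0.0821, limma). The 4 higher calls (Ruvbl2, Wdr5, Zbtb17 and Cdk9, at 0.15 to 0.22) were weak, and none was left when Bcat1-KO replicate 3 or any 1 control library was left out. Of 10 genes of the SIN3 corepressor, through which MXD proteins and MNT repress, 3 rose and 3 fell, and without Bcat1-KO replicate 1, 4 rose and 3 fell. Rbbp7 and Rbbp4, which are alike in sequence, rose by 0.36 and 0.34 (adjusted p = 0.00113 and 0.00219), and Sin3b fell by 0.25 (adjusted p = 0.00587).

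In PRC1.6, the Polycomb complex that MGA and MAX nucleate, 5 of 10 genes rose and 3 fell. Rybp and Yaf2, which encode alternative subunits of the same position, moved oppositely. Rybp fell to 38.8 ± 2.96 CPM in Bcat1-KO, against 86.4 ± 2.84 CPM in control (log2 fold change -1.16, adjusted p = 6.247e-08). Yaf2 rose to 55.6 ± 5.48 CPM in Bcat1-KO, against 29.5 ± 0.458 CPM in control (0.91, adjusted p = 1.28e-06). Tfdp2, a dimer partner of E2F factors, rose by 0.74 on the log2 scale (adjusted p = 1.294e-05).

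Of 13 genes that set the stability of MYC proteins, 8 rose and 2 fell, with a median of 0.26. That is 76.9% past the threshold, against 62.3% of all genes (32.0% higher). Without Bcat1-KO replicate 1, 9 rose and 1 fell (76.9%, against 65.6% of all genes). The list mixes genes that protect MYC proteins with genes that tag them for degradation, so these counts give no direction of stability. Aurka, the kinase that shields N-MYC from degradation, rose to 155 ± 4.28 CPM in Bcat1-KO, against 95.5 ± 0.433 CPM in control (log2 fold change 0.70, adjusted p = 1.025e-06). Skp2, a ubiquitin ligase subunit for MYC, rose to 91.3 ± 2.75 CPM in Bcat1-KO, against 54.5 ± 2.10 CPM in control (0.74, adjusted p = 9.291e-07), and the mitotic kinase gene Plk1 rose by 1.001 (adjusted p = 1.117e-06). The 2 lower calls were Trim32 at -0.42 and Gsk3b at -0.21, and of these Gsk3b was weak (adjusted p = 0.0447): 1 lower call was left when any 1 library except Bcat1-KO replicate 3 was left out.

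Of 3 tested genes for RNA-binding proteins that act on MYCN or MYC messages, 2 fell and 0 rose (edgeR); 0 were higher at an unadjusted p under 0.05 and with DESeq2 and limma too. Igf2bp3 fell to 10.5 ± 1.27 CPM in Bcat1-KO, against 29.8 ± 1.85 CPM in control (log2 fold change -1.51, adjusted p = 1.481e-07). Igf2bp2 fell to 1.55 ± 0.466 CPM in Bcat1-KO, against 2.93 ± 0.0885 CPM in control (-0.92, adjusted p = 0.00322). Lin28b had 10.8 ± 2.05 CPM in Bcat1-KO and 13.1 ± 3.74 CPM in control and did not pass (-0.29, adjusted p = 0.217). Lin28a and Igf2bp1 had too few counts to test.

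Genes that MYC proteins are known to activate were read by function. Of 20 ribosome biogenesis genes 6 fell and 0 rose (edgeR), so 30.0% passed, against 62.3% of all genes. The count of 0 higher genes was the same at an unadjusted p under 0.05 and with DESeq2 and limma. Nucleolin (Ncl) fell to 1451 ± 125 CPM in Bcat1-KO, against 2142 ± 26.8 CPM in control (log2 fold change -0.56, adjusted p = 0.000133). Gnl3, the nucleolar GTPase nucleostemin, fell to 130.1 ± 12.98 CPM in Bcat1-KO, against 226 ± 3.11 CPM in control (-0.80, adjusted p = 3.154e-06). Utp20, of the small-subunit processome, fell to 75.8 ± 17.0 CPM in Bcat1-KO, against 132 ± 13.96 CPM in control (-0.80, adjusted p = 0.00033). Without Bcat1-KO replicate 1, 3 of the 20 rose and 6 fell.

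Of 18 metabolic targets 9 rose and 1 fell, so 55.6% passed, against 62.3% of all genes (32.0% higher and 30.3% lower). Odc1, which starts polyamine synthesis, rose to 845 ± 95.8 CPM in Bcat1-KO, against 316 ± 12.7 CPM in control (log2 fold change 1.42, adjusted p = 7.636e-08). It lies on chromosome 12, as do the genes from Greb1 to Pdia6 that also rose, and a part of its position in the difference was not tested. The glutamine transporter gene Slc1a5 rose to 823 ± 78.7 CPM in Bcat1-KO, against 243 ± 26.8 CPM in control (1.76, adjusted p = 2.369e-08). The transferrin receptor gene Tfrc rose to 204 ± 13.9 CPM in Bcat1-KO, against 128 ± 11.5 CPM in control (0.67, adjusted p = 1.896e-05). Without Bcat1-KO replicate 3 the list had 3 lower calls.

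Of 14 cell cycle targets 6 rose and 2 fell (57.1%, against 62.3% of all genes), and without Bcat1-KO replicate 3, 5 fell. Ccnd1, which encodes cyclin D1, rose to 649 ± 40.7 CPM in Bcat1-KO, against 276 ± 11.7 CPM in control (log2 fold change 1.24, adjusted p = 4.83e-08). The E2F factors split, with E2f2 higher by 0.60 (adjusted p = 0.000105) and E2f1 lower, at -0.47 (adjusted p = 6.739e-05). All 11 tested genes that MYC is known to repress passed, 5 higher and 6 lower, where 62.3% of all genes passed (32.0% higher and 30.3% lower). Clusterin (Clu) fell to 1.32 ± 0.301 CPM in Bcat1-KO, against 13.4 ± 0.885 CPM in control (-3.34, adjusted p = 6.743e-09), and the stress gene Gadd45a to 45.0 ± 0.683 CPM in Bcat1-KO, against 136 ± 3.61 CPM in control (-1.60, adjusted p = 7.54e-10). The transglutaminase gene Tgm2 rose to 16.3 ± 1.22 CPM in Bcat1-KO, against 6.07 ± 0.0592 CPM in control (1.42, adjusted p = 2.989e-07).

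**Figure D5:**
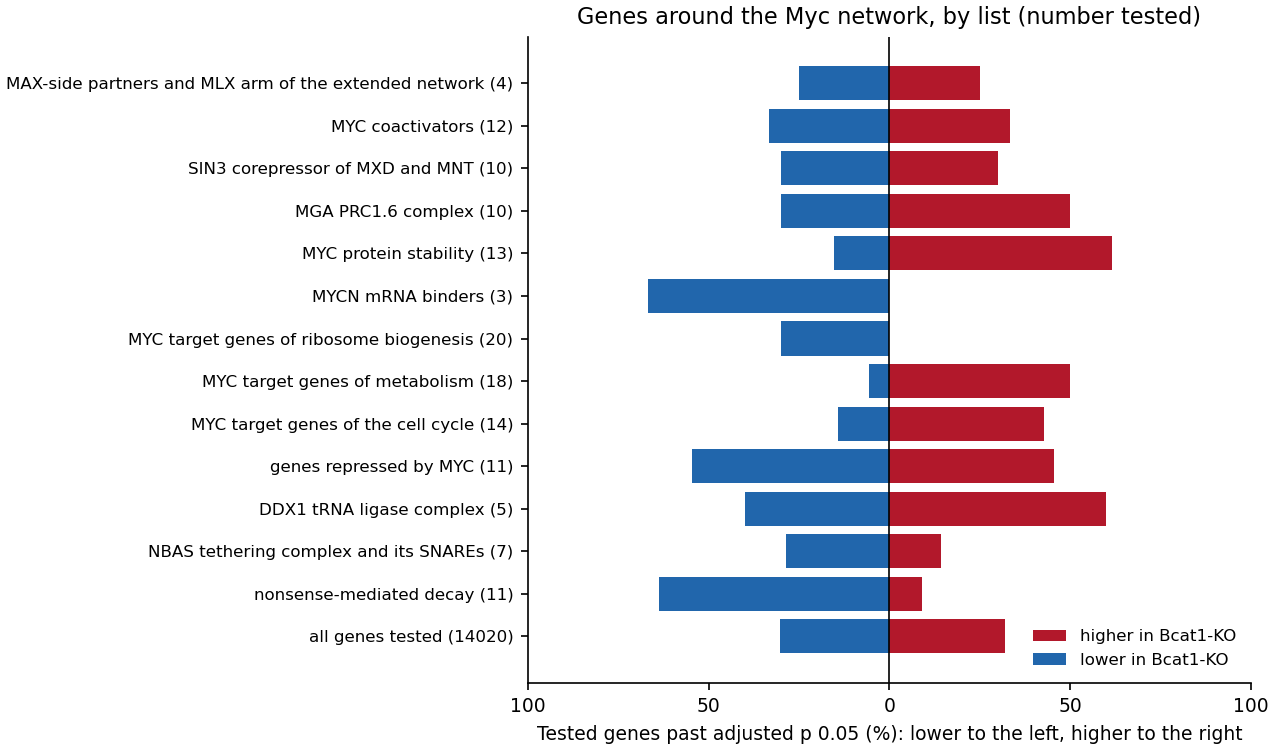
Percentage of the tested genes of each of the 13 lists, and of all genes, that passed the test (horizontal axis), with genes lower in Bcat1-KO to the left of 0 and genes higher to the right; the number tested stands after each name. All genes reach 30.3% lower and 32.0% higher, and the ribosome biogenesis genes and the mRNA binders have no bar on the higher side.

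The partners of the proteins made by Ddx1 and Nbas moved in both directions. Of the other 5 genes of the tRNA ligase complex of DDX1, 3 rose and 2 fell. The ligase gene Rtcb fell by 0.34 on the log2 scale (adjusted p = 0.000476) and 2700060E02Rik by 0.29 (adjusted p = 0.00236), whereas Fam98a rose by 0.51 (adjusted p = 1.496e-05) and Fam98b by 0.36 (adjusted p = 0.000918). Zbtb8os, which encodes the activator archease, had 0.21 (adjusted p = 0.0381), and this call was lost when any 1 library was left out (adjusted p 0.0529 to 0.151), so that without Bcat1-KO replicate 1, 2 of the 5 rose and 2 fell.

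Of 7 genes of the tethering complex that NBAS joins and its SNAREs, 1 rose and 2 fell. Scfd2 rose to 6.60 ± 0.188 CPM in Bcat1-KO, against 3.33 ± 0.0362 CPM in control (log2 fold change 0.99, adjusted p = 3.481e-05). The SNARE gene Use1 fell to 52.2 ± 3.28 CPM in Bcat1-KO, against 83.4 ± 4.75 CPM in control (-0.68, adjusted p = 6.974e-06), and the tether gene Rint1 by 0.31 (adjusted p = 0.00232). Zw10, Stx18, Bnip1 and Sec22b had values of 0.13, 0.14, -0.13 and 0.08 and did not pass, though Zw10 did without Bcat1-KO replicate 1, at 0.24 (adjusted p = 0.00366), which made 2 higher and 2 lower.

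In nonsense-mediated decay, in which NBAS also takes part, 7 of 11 genes fell and 1 rose, with a median of -0.21. That is 72.7% past the threshold, against 62.3% of all genes (30.3% lower). Upf1, the central helicase, fell to 127 ± 16.1 CPM in Bcat1-KO, against 194 ± 9.76 CPM in control (log2 fold change -0.61, adjusted p = 0.000104). Smg5 fell to 148 ± 17.0 CPM in Bcat1-KO, against 218 ± 11.7 CPM in control (-0.56, adjusted p = 0.000146). The helicase gene Dhx34 rose to 24.0 ± 0.458 CPM in Bcat1-KO, against 16.9 ± 1.07 CPM in control (0.50, adjusted p = 0.00024).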

How the data were processed

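Total RNA of 6 mGB2 samples was made into stranded mRNA libraries after DNase digestion, per the labels' protocols. The submitters' processing notes name STAR 2.5.3a, featureCounts and mm10; no annotation release is named in the sources used here. The deposited read counts are raw reads per gene and strand, per the file headers; 96.4% to 96.5% lay on the reverse strand, and these were used. The authors' deposited TPM values, which sum to 1000000 over all genes, entered an alternative only. Exonic lengths are as deposited by the authors. Gene types came from GENCODE M21 by ID (49326 matched, 99.5%).

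Genes were filtered with edgeR 4.0.16 (14020 kept, 0.0511% of counts removed), scaled by TMM and tested by its quasi-likelihood test with no covariate and Benjamini-Hochberg adjustment over all genes at 0.05. CPM use TMM-scaled totals. The script was tested on simulated data of 13819 genes, with 50 genes changed at each of 1.25-, 1.5-, 2- and 4-fold. It recovered 16.7%, 83.0%, 87.8% and 100% of those tested, and 7.38% of its 149 calls were false. Far fewer genes changed there than the 62.3% called here, so the simulation does not speak to that setting. Alternatives were other scalings, no low-count filter, DESeq2 1.42.0, limma 3.58.1 on log2(TPM + 1) and log2(TPM + 0.1), a gene length offset, a test against 1.5-fold, a replicate block and leaving out each library. Promoters are RefSeq's. Counting error is small at this depth; the spread between the 3 libraries of a group sets the precision.

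The members and lists were chosen with earlier results of these data known. Named were all 10 members, of each list the 3 called genes that changed most (mean log2 CPM 0 or higher), every tested gene of lists of 7 or fewer, the nearest 2 tested genes on each side of the locus, and the 4 genes most like Mycn; other genes named were chosen after their values were seen. A gene that this rule names is not reported here.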

Additional observations from a re-analysis of the deposited data

How the results depend on the processing

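Under all 17 alternatives the log2 fold changes of Mycn, Ddx1 and Nbas kept their direction (-0.45 to -0.33, -1.04 to -0.93 and -1.95 to -1.83). The calls for Myc, Mycl and Mxd4 held under all 18. Max passed in both fits of TPM values (0.19, adjusted p = 0.0259 and 0.0254, limma). It did not pass with the gene length offset, at 0.08 (adjusted p = 0.344, edgeR). Tested against 1.5-fold, 1564 genes were higher and 1481 lower, 1 network gene was lower, and the lists had 9 higher and 8 lower genes; this test asks for a larger change by construction. Leaving out 1 library at a time gave 3871 to 4589 genes higher and 3846 to 4741 lower, 2 to 3 network genes higher and 2 to 4 lower (4 without Bcat1-KO replicate 1), and in the lists 35 to 51 genes higher and 35 to 48 lower. Mxd1, never called, turned to 0.045 and 0.049 in the fits of TPM values and lay at -0.072 to 0.027 with 1 library left out, and Sec22b, also never called, at -0.0062 to 0.12; the cause was not tested. Of 900 values for 50 named genes, 849 kept direction and side of the threshold. Same-numbered samples of the 2 groups had correlations of deviations of -0.051, -0.073 and 0.156, and only those numbered 3 correlated best with their own number, so the numbers were not taken as pairs; with the replicate block 4448 genes were higher and 4214 lower, and the counts of network genes called were 2 and 2. Depth limits genes of few counts, such as Mycl with 51 to 81 counts per control library.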
